A study of Mus musculus with 2 samples.

Results

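A single two-colour microarray compared cultured brown fat cells of the PKGI knockout (KO) and the wild type (WT). They were differentiated in a dish from precursors of littermate mice without and with PKGI. PKGI, the product of the gene Prkg1, is a protein kinase that cGMP switches on. Both genotypes had the C57BL/6N background. KO RNA was labelled with the green dye Cy3 and WT RNA with the red dye Cy5, so the sign of the scanner's ratio was turned and every log2 ratio below is KO over WT. The measured set was all gene spots of that array without an outlier mark, 43176 of the 86758 gene spots on the 2 arrays of the study, and it gave values for 19298 gene names. The other array compared brown adipose tissue of the same genotypes with the dyes the other way round and is used below only for side-by-side values. The ages of the mice, whether cells of several mice were pooled, the culture additives and the deleted part of Prkg1 are not given in the sources used here.

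cGMP, the activator of PKGI, is a second messenger made when cells meet nitric oxide or natriuretic peptides. In muscle and fibroblasts it is known to oppose RhoA and its kinase ROCK, which tense the actin skeleton, and in cultured fat precursors RhoA activity is known to hold back fat cell formation. A precursor becomes a fat cell when C/EBP factors switch on Pparg and Cebpa, which then maintain the genes of lipid uptake, storage and release, and in brown fat also the genes of the heat-making mitochondria.

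With 1 array there was no replicate, so no p-value is given, and each value describes these 2 RNA samples. As the dyes were not swapped, dye bias of a gene and a genotype difference cannot be told apart. In RNA of a whole culture, fewer cells of a type and less RNA per cell cannot be told apart either. Levels are given as normalised intensity, a relative brightness that may be set against the other channel of the same gene but not against another gene, and for a gene with several probes it is their geometric mean. A gene was counted as higher or lower, or as past 2-fold, when KO and WT differed by 2-fold or more, that is by 1 or more on the log2 scale. Of all gene names, 416 (2.16%) were higher by this rule in KO and 736 (3.81%) were lower. Among the 15115 names found in the RefSeq table, from which all lists below were built, the shares were 2.49% and 4.17%. Many genes stand in more than 1 list, so the list counts are not separate results. The split depended on the scaling: 36.1% of the differing genes were higher here, 45.4% with the ratios of the scanner software, 12.6% without loess normalization and 16.4% after a shift by the spiked-in controls, and without loess the middle of all genes lay at -0.23 instead of -0.02. Large differences lay mostly on one side, with 36 genes past 4-fold upward against 131 downward, and 4 past 8-fold upward against 41 downward. No gene spot was saturated. Probes spotted up to 10 times had a pooled SD between spots of 0.1 (log2 units), and different probes of a gene with a median SD of 0.144, which measures the array and not the biology.

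**Figure D1:**
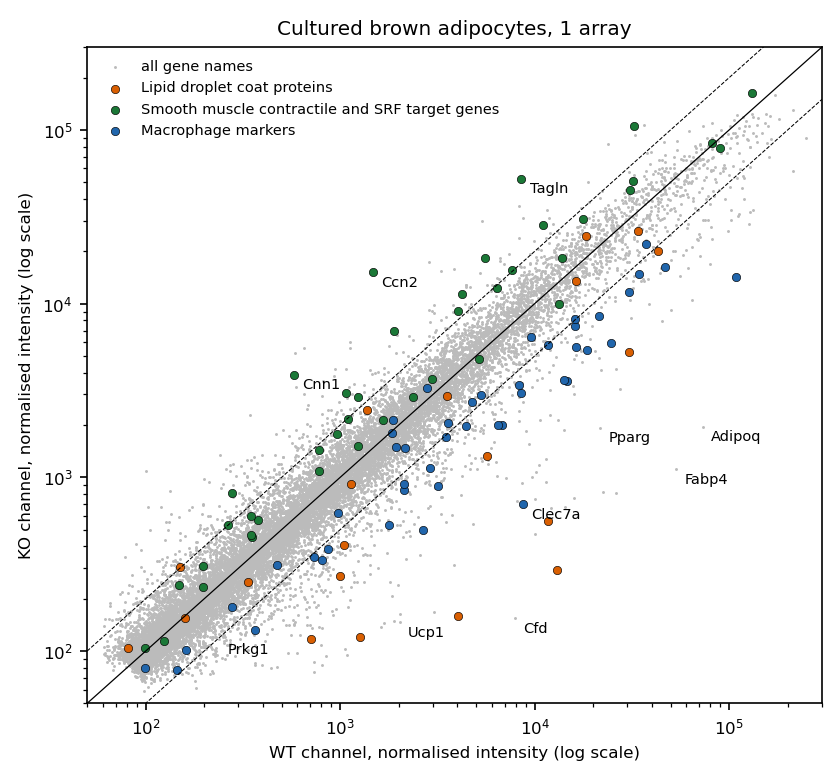
Normalised intensity of each gene name in the WT channel (x axis, log scale) and the KO channel (y axis, log scale) of the adipocyte array. The solid line marks equal levels and the dashed lines a 2-fold difference; 10 of 20 lipid droplet coat genes and 29 of 46 macrophage markers lie below the lower dashed line, and 37 of 41 contractile genes lie above the solid line.

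The targeted gene itself differed between its probes. The Prkg1 probe at chromosome 19, 30264319 to 30264378 in the coordinates of the array file (whose genome build is not stated), read 728 in WT and 146 in KO, a log2 ratio of -2.31. The probe at 30268225 to 30268284 read 214 in WT and 112 in KO (-0.94). Both were well above background in each channel and both were lower in KO. The remaining probes, at 30408200 to 30408259 and 31441438 to 31441497, were not well above background in WT, so they do not test the label. The probe at 30408200 read 98.7 in KO, where it was well above background (log2 ratio 0.17), and it enters the Prkg1 mean given below. The probe at 31441438 was not well above background in KO either and was left out. Prkg2, the gene of the other cGMP-dependent kinase, was not well above background in WT and read 152 in KO. Against the lowest WT signal well above background it was 2.09-fold higher, an uncertain size. Its log2 ratio was 0.6 without the filter on dim probes.

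In the WT channel the cells carried defining transcripts of fat cells and, among brown fat markers, Ucp1. Adipoq, the hormone adiponectin, read 72935 in WT, Plin1 11673 and Ucp1, the uncoupling protein that lets brown fat mitochondria make heat, 2028. In KO they read 1959, 561 and 147, still well above background. Other brown fat transcripts were faint in both cultures: the elongase Elovl3 read 138 in WT and was not well above background in KO, and Dio2, the enzyme that activates thyroid hormone, read 112 in WT and 200 in KO. The label is therefore borne in WT by the fat cell markers Adipoq and Plin1 and by the brown fat marker Ucp1. In KO the same markers were present at far lower levels.

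Transcription factors of fat cell formation were lower in part, the master regulator among them. In the list of adipogenic transcription factors 9 of 38 genes with a value (23.7%) passed 2-fold downward and 3 (7.89%) upward, with a median log2 ratio of -0.38. Pparg, the master regulator, read 21639 in WT and 1927 in KO, a log2 ratio of -3.49 averaged over 9 spots of its probe. Cebpa, its partner in mature fat cells, read 2389 and 539 (-2.15). The lipogenic regulators were lower as well: Mlxipl, the carbohydrate-sensing factor ChREBP, read 1856 and 208 (-3.16), Srebf1 read 50365 and 9214 (-2.45), and the oxysterol receptor gene Nr1h3 read 2819 and 665 (-2.08). Rxrg (-2.39), Ebf2 (-1.87), Ppara (-1.08) and Klf15 (-1.05) complete the lower group. The early factors Cebpb and Cebpd, which come before Pparg in the known sequence, stood apart from it. Cebpb read 5031 in WT and 3619 in KO (-0.48), and Cebpd was brighter in KO, 8490 against 16203 (0.93), both within 2-fold. The higher genes were Foxc2 (460 in WT, 1351 in KO, 1.55), a forkhead factor, and Gata3 (129 and 346, 1.43) and Gata2 (182 and 390, 1.1), factors of the precursor stage known to restrain Pparg. Gata2 was under 2-fold without loess (0.79).

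Proteins that coat and build the lipid droplet were among the lowest on the array. Of 20 genes 10 passed 2-fold downward and 1 upward, with a median of -0.76. Cidec, which enlarges droplets by fusing them, read 12970 in WT and 291 in KO (-5.48). Plin4 read 4012 and 160 (-4.65), Plin1, the gatekeeper of lipolysis on the droplet, 11673 and 561 (-4.38), and Plin5, which ties droplets to mitochondria, 708 and 118 (-2.58). The perilipins found in most cell types stayed closer to equal. Plin2 read 42823 and 20070 (-1.09) and Plin3 read 16347 and 13442 (-0.28). Caveolins, which form the pits of the fat cell membrane, were lower (Cav1 30597 in WT and 5268 in KO, -2.54; Cav2 -1.35), whereas the cavins that share those pits were within 2-fold, with Cavin1 at -0.27, Cavin2 at -0.39 and Cavin3 at 0.41. Fitm2, which helps droplets bud from the endoplasmic reticulum, had -1.88, and its relative Fitm1 was the 1 higher gene (1.03, and 0.78 without loess).

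Genes that break down stored fat were lower in the same culture. In the list of triglyceride lipases and their regulators 9 of 16 genes (56.2%) passed 2-fold downward and none upward. The 9 include the fatty acid carrier Fabp4 (-5.58), and 7 of the 16 also stand in another list. The median was -1.44, and ran from -0.81 without the filter on dim probes to -2.1 with only probes above background in both channels. The 3 lipases that act in sequence were all lower: Pnpla2 (ATGL) read 5754 in WT and 1195 in KO (-2.27), Lipe (hormone-sensitive lipase) 1128 and 197 (-2.52), and Mgll 1440 and 462 (-1.64). Both the activator of ATGL, Abhd5 (-1.24), and its inhibitor, G0s2 (5693 and 1332, -2.1), were lower. Lpl, the lipase that frees fatty acids from blood lipoproteins, read 64141 and 10504 (-2.61), and its inhibitor Angptl4 10580 and 1175 (-3.17). Lysosomal lipase Lipa had -0.81, and Pnpla8, Lipg and Abhd6 lay between -0.24 and 0.07.

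Fatty acid uptake showed 1 carrier far lower beside relatives that were not. Fabp4, the abundant fatty acid carrier of fat cells, had 3 probes: 173522 in WT and 2108 in KO (-6.36), 174723 and 2366 (-6.21), and a dim probe with 4971 and 279 (-4.16). Fabp5, its close relative also on chromosome 3, read 697 and 541 (-0.37), and Fabp3, the heart and brown fat form, 1457 and 1759 (0.27). The membrane transporter Cd36 read 10126 and 1074 (-3.24), and the activating enzyme Acsl1 10012 and 749 (-3.74), while its relatives Acsl3 (0.47), Acsl4 (0.05) and Acsl5 (-0.26) were within 2-fold. Of the 20 genes of this list 5 passed 2-fold downward, none was higher and the median was -0.12, so the difference lay in a few members.

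The glycerol backbone and the assembly of triglyceride followed. Gpd1, which makes glycerol phosphate from a glycolytic intermediate, read 14244 in WT and 671 in KO on the mean of probes at -5.42 and -3.4. The glycerol channel Aqp7 was 8.48-fold lower and Pck1, the enzyme of glyceroneogenesis, 4.79-fold lower. Both were not well above background in KO, so these sizes are uncertain. Gpd2 had -1.36, and the mitochondrial Pck2 0.1. Of 20 genes of triglyceride assembly 8 passed 2-fold downward and none upward (median -0.51). Dgat2, which adds the last fatty acid, read 2574 and 359 (-2.84) and Dgat1 3728 and 1457 (-1.36). Lpin1 (-1.88), Agpat2 (-1.78), Gpam (-1.1) and Gpat3 (-1.02) catalyse the earlier steps.

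Genes of fatty acid synthesis were lower at several steps of the path. Of 27 lipogenic genes 12 (44.4%) passed 2-fold downward and none upward, and the median was -0.96. Acly, which makes cytosolic acetyl-CoA, read 4332 in WT and 1582 in KO (-1.45, but -0.9 without the filter on dim probes), Acaca 343 and 164 (-1.06), and Fasn 13153 and 2138 (-2.62). Nat8l, which makes N-acetylaspartate in brown fat, read 1890 and 149 (-3.66), and Aspa, which cleaves it, 370 and 183 (-1.02). The desaturases Scd1 (27352 and 3241, -3.08) and Scd2 (61425 and 15969, -1.94) were lower. Most other desaturase and elongase genes were not, with a median of 0.03 over 20 genes that turned to -0.33 without loess, and the very long chain elongase Elovl4 was higher (186 and 489, 1.4).

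**Figure D2:**
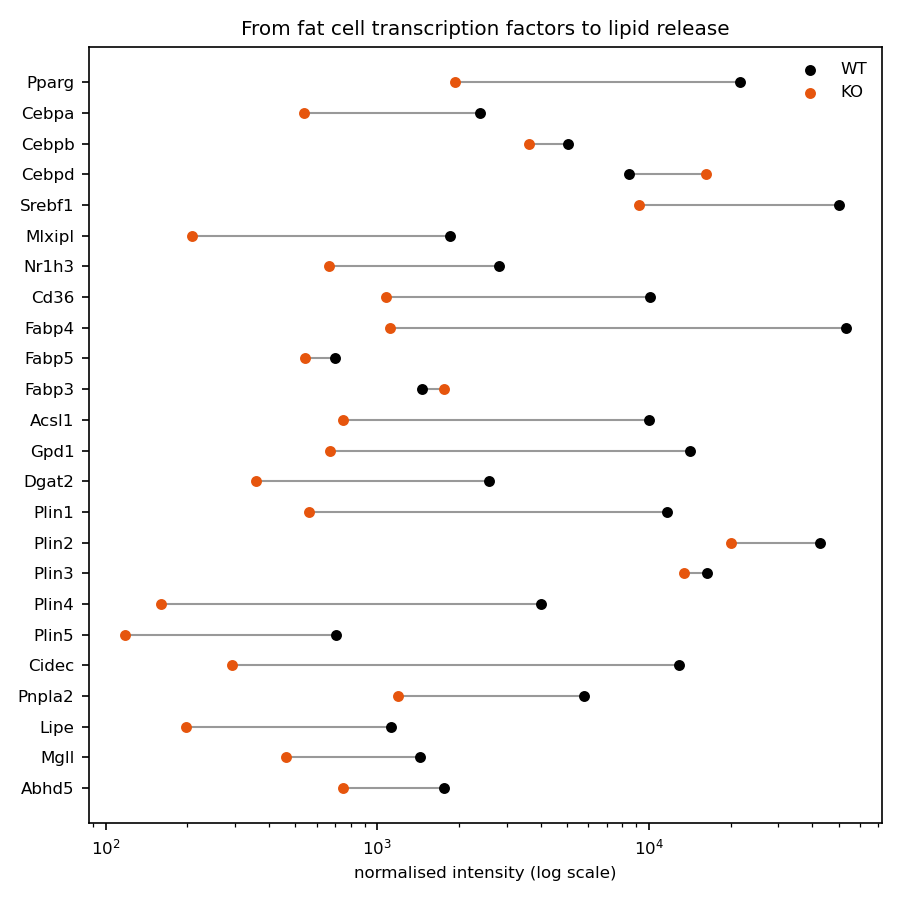
Normalised intensity (log scale) of 24 fat cell genes in the WT (black) and KO (orange) channels, from transcription factors at the top to lipases at the bottom, 1 array with no error bars. Pparg, Fabp4, Plin1 and Cidec show wide gaps with KO on the left, whereas Cebpb, Fabp5, Fabp3 and Plin3 lie close together and Cebpd is brighter in KO.

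Genes of secreted proteins differed both ways. Of 36 adipokine genes 10 (27.8%) passed 2-fold downward and 8 (22.2%) upward. The lower ones were products of mature fat cells: Cfd (adipsin) read 7881 in WT and 155 in KO (-5.67), the lowest value among genes measured in both channels. Adipoq had -5.22, Rbp4, the retinol carrier, 22394 and 829 (-4.76), Retn (resistin) 1984 and 241 (-3.04), and Hp (haptoglobin) 4193 and 792 (-2.4). Lep (leptin) was 5.9-fold lower, an uncertain size as it was not well above background in KO. The higher ones included 4 relatives of adiponectin. C1qtnf3 read 103 and 674 (2.7), C1qtnf7 290 and 1020 (1.81), C1qtnf2 98.3 and 290 (1.56), and C1qtnf5 487 and 1200 (1.3, and 0.89 without loess). Other relatives were within 2-fold, namely C1qtnf1 (-0.49), C1qtnf12 (-0.25), C1qtnf4 (0.54) and C1qtnf6 (0.64). The cytokine Il6 read 125 and 434 (1.8) and Ccn5, a matrix protein of the Wnt response, 2868 and 17413 (2.6).

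Receptors and signal relays of lipolysis and insulin action were lower at selected points. Of 24 lipolytic receptor genes 5 (20.8%) passed 2-fold downward and none upward (median -0.54). Mrap, the accessory protein of the ACTH receptor, read 9989 in WT and 470 in KO (-4.41), while the receptor gene Mc2r read 305 and 204 (-0.58). The fatty acid receptors Ffar4 (-2.57) and Ffar2 (-2.47) were lower. The β-adrenergic receptor genes were faint, with Adrb3 at 147 in WT and not well above background in KO (-0.81) and Adrb1 at -0.34. Downstream, the protein kinase A subunit of fat cells, Prkar2b, read 21296 and 4882 (-2.13), whereas the catalytic subunit Prkaca had -0.27. Of 44 insulin pathway genes 4 (9.09%) passed 2-fold downward. Among them were the insulin-regulated glucose transporter Slc2a4 (8106 and 732, -3.47), the cAMP-degrading Pde3b (-1.36, and -0.67 without the filter on dim probes) and Tbc1d4, the brake on transporter traffic (-1.15, and -0.84 without that filter). The receptor Insr (-0.29) and the relays Irs1 (-0.08) and Akt2 (-0.49) were within 2-fold.

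Brown fat genes were lower in part. Of 39 thermogenic and brown identity genes 13 (33.3%) passed 2-fold downward and none upward, with a median of -0.68. Of the 39, 24 also stand in another list. Ucp1 had -3.78, Cidea read 1259 in WT and 121 in KO (-3.38), and the coactivators of mitochondrial genes Ppargc1b (1093 and 179, -2.61) and Ppargc1a (700 and 141, -2.31) were lower together. Prdm16, which directs precursors to brown fat, read 1719 and 780 (-1.14). The lineage markers Zic1 (4792 and 5192, 0.12) and Tbx15 (1970 and 2234, 0.18) were almost equal, as was Acot11 (-0.01), while Cox8b, a brown fat form of complex IV, had -0.32. The white fat and beige fat list had a median of -0.01 over 22 genes, with its sign depending on the processing (0.25 with the ratios of the scanner software). Its lower members were the amino acid transporter Slc36a2 (-3.54), Retn, Lep, Agt (-1.45) and Slc7a10, which was 2.43-fold lower but not well above background in KO.

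Mitochondrial genes were not lower as one block. In the TCA cycle and pyruvate entry list 8 of 37 genes (21.6%) passed 2-fold downward, none was higher and the median was -0.65. Pcx, which refills the cycle, read 11370 in WT and 1280 in KO (-3.15), Idh3a 45205 and 7976 (-2.5), Cs (citrate synthase) 30338 and 11741 (-1.37), and the pyruvate carrier subunit Mpc2 had -1.56 while its partner Mpc1 had -0.11. Of 42 fatty acid oxidation genes 8 (19.0%) passed 2-fold downward, with the acyl-CoA dehydrogenases Acadvl (-1.44), Acadm (-1.38) and Acadl (-1.36) close to each other. Pex11a, which multiplies peroxisomes, had -2.63 and the thioesterase Acot1 was the 1 higher gene (1.29, and 0.86 without loess). Of 32 genes of branched-chain amino acid, propionate and ketone metabolism 1 was lower (3.12%; Mccc1, a leucine-breakdown enzyme, at -1.45) and 1 higher (Bcat1, 1.17, and 0.87 without loess), near the shares over all RefSeq names.

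The respiratory chain was lower to a smaller degree and unevenly. Complex I had 1 of 37 genes at least 2-fold lower (2.7%, median -0.28), below the 4.17% of all RefSeq names. Complexes II and III had 2 of 16 (12.5%, median -0.52), with the cytochrome c1 gene Cyc1 at -1.49. Complex IV had 3 of 23, with Cox6a1 (-1.48) and Cox4i1 (-1.13) lower beside Cox7a1. Its tissue forms diverged. Cox7a1, the form of muscle and brown fat, read 5049 and 1116 (-2.18), its general counterpart Cox7a2 16955 and 20033 (0.24), and Cox6a2, a muscle form, 790 and 1693 (1.1, and 0.68 without loess). The ATP synthase list had 4 of 19 (21.1%), with the catalytic subunits Atp5b (-1.47) and Atp5a1 (-1.32) lowest. By contrast none of 78 mitochondrial ribosomal protein genes and none of 42 import and chaperone genes passed 2-fold, with medians of -0.04 and -0.06. Tfam, which packages mitochondrial DNA, read 2838 and 3179 (0.16).

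Glucose handling was lower at the entry and in several later enzymes. Of 50 genes 10 passed 2-fold downward and 1 upward, with a median of -0.33. Besides Slc2a4, the glycogen brancher Gbe1 read 9383 in WT and 1559 in KO (-2.59), Aldoa 212829 and 57854 (-1.88), and the pentose phosphate enzyme Taldo1 77415 and 30234 (-1.36). The muscle and nerve enolases Eno3 (0.9) and Eno2 (1.05, and 0.66 without loess) lay on the other side.

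**Figure D3:**
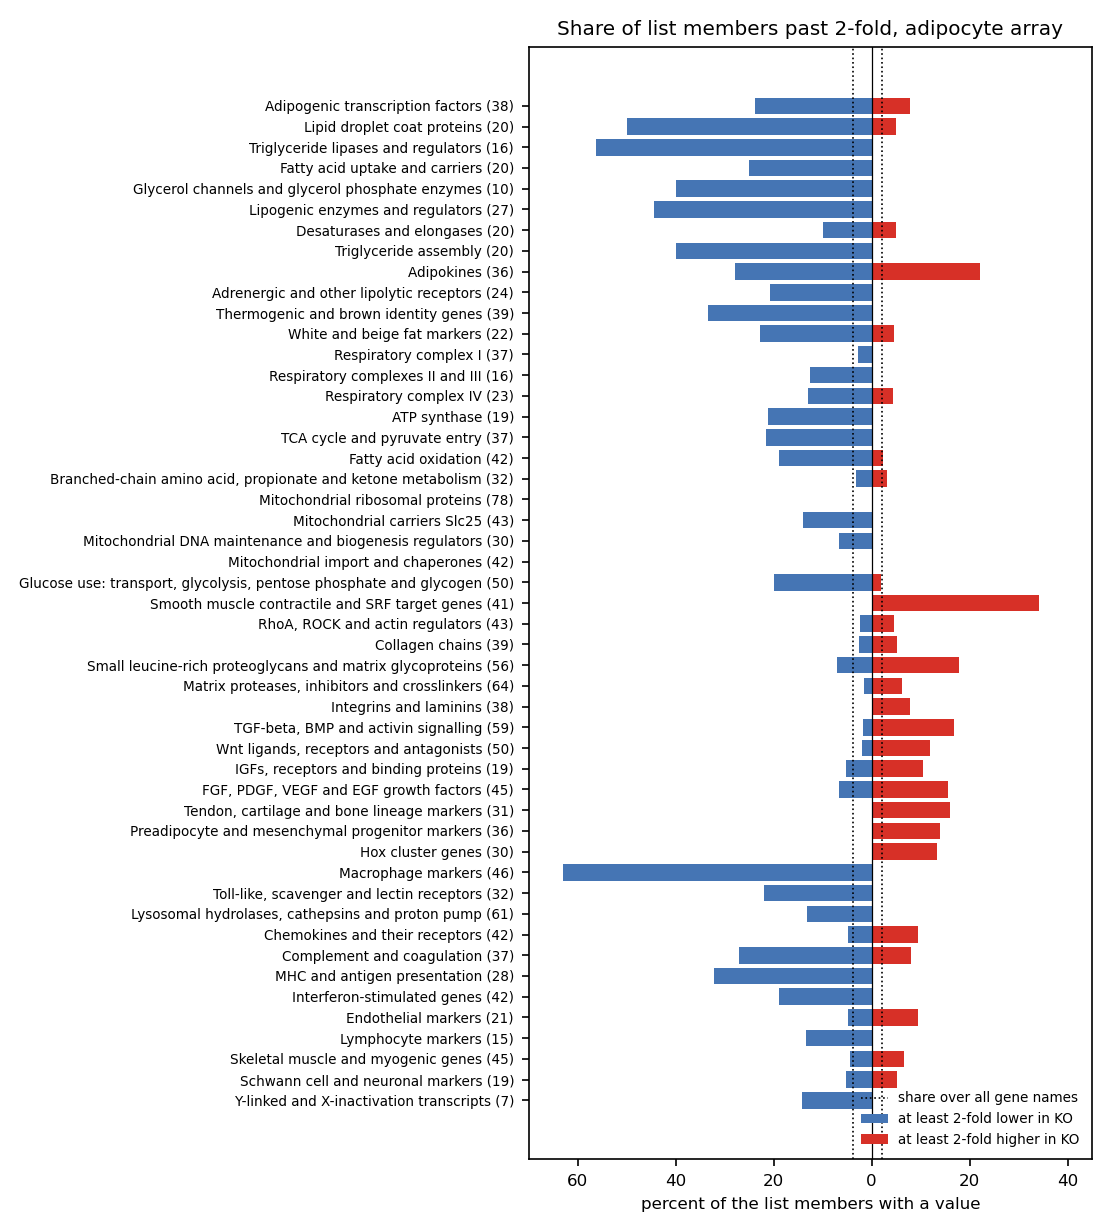
Share of the genes with a value in each list that passed 2-fold downward (blue, to the left) or higher (red, to the right) in KO on the adipocyte array, in percent, with the number of genes in parentheses; dotted lines mark the shares over all gene names, 3.81% and 2.16%. Macrophage, lipase and lipid droplet lists reach farthest to the left, and the contractile list, with 34.1%, reaches farthest to the right.

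Contractile genes, many of them known targets of the serum response factor SRF, had the largest share of higher genes among the 70 lists. Of 41 genes 14 (34.1%) passed 2-fold upward, none was lower, 37 had ratios above 0, and the median was 0.69 (0.36 without loess). Tagln, which binds actin filaments, read 8546 in WT and 52475 in KO (2.62), Cnn1, the smooth muscle calponin, 578 and 3891 (2.75), and the myosin light chain Myl9 32366 and 105273 (1.7). The SRF and YAP target Ankrd1 read 1895 and 6972 (1.88), and the secreted matrix proteins Ccn2 and Ccn1 read 1479 and 15180 (3.36) and 4213 and 11298 (1.42). Acta2, smooth muscle actin, had a mean of 1.24 over 5 probes between 0.36 and 2.27, the lowest of them not well above background in WT. Its 2 bright probes differed: the 10-spot probe read 20797 and 75496 (1.86), and the other 19921 and 35223 (0.82, within 2-fold). The other muscle actin genes Acta1 (1.52), Actg2 (1.16, and 0.76 without loess) and Actc1 (1.49) were higher too, and whether each probe reads a single actin gene was not checked. Myh11, the myosin of fully formed smooth muscle, was faint. The general filament genes Vim (-0.19), Flna (-0.12) and Tpm4 (0.05) were near equal.

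Promoters of this list were searched for the CArG box, the element that SRF binds, because it is the known shared feature of such genes. In the 250 bases before the start site, from the RefSeq table of build GRCm38.p6 and reading both strands, 482 of 32851 promoters (1.47%) held 1 or more. In the contractile list 13 of 43 promoters (30.2%), from 11 of 35 genes with an entry, held it. It was found in 5 of 51 promoters of the adipogenic transcription factors, from Egr2 and Ebf3, and in 0 of 25 of the lipid droplet genes. The contractile list was drawn up to include known SRF targets, so its share does not bear on the KO and WT difference. Actg1 and Filip1l, counted among its carriers, had no value on this array. Tagln and Ccn2 had no promoter entry and were not searched. Carrying the box was not the same as being higher, since Fhl1 (-0.43), Ldb3 (0.07) and Myl6 (0.31) carry it and were within 2-fold. The sites of members past 2-fold are shown with the CArG box in capitals.
Myl9, chr2:156775268-156775347, plus strand: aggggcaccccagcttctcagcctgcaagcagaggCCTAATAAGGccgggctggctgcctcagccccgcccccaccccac
Cnn2, chr10:79988509-79988588, plus strand: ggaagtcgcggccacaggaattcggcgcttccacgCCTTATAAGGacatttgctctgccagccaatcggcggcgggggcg
Acta1, chr8:123894804-123894883, minus strand: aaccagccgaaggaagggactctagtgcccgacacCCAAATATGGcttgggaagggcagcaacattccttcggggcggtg
Fhl2, chr1:43163962-43164027, minus strand: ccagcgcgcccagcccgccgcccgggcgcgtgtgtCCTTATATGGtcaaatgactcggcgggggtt
Fhl2, other start, chr1:43196813-43196892, minus strand: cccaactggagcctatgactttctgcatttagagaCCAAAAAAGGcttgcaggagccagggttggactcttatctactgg
Each is written 5′ to 3′ along its gene. The box lies at -161 to -152 from the start in Myl9, -56 to -47 in Cnn2, -73 to -64 in Acta1, and -31 to -22 and -96 to -87 at the Fhl2 starts. Cnn2, a calponin of non-muscle cells, read 7604 in WT and 15698 in KO (1.05, and 0.63 without loess), and Fhl2, a cofactor of SRF and Wnt signalling, 11077 and 28242 (1.35, and 0.92 without loess). Srf itself, whose promoter holds boxes too, had 0.3. The idealised site of PPAR and RXR pairs, a pair of AGGTCA motifs with 1 base of any kind between them, was found on either strand in 11 of 32851 promoters (0.0335%) and in 0 of the promoters of these 3 lists. With a site this rare, 0 among so few promoters tells nothing about PPAR binding to these genes.

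RhoA signalling genes themselves were mostly near equal. Of 43 genes 2 passed 2-fold upward and 1 was lower, and the median was 0.07 (-0.34 without loess). Pfn2, a profilin that feeds actin growth, read 1114 in WT and 3298 in KO (1.57). Ppp1r14a, an inhibitor of myosin phosphatase, read 181 and 425 (1.23, and 0.92 without loess). Was, the actin regulator of blood cells, had -1.39. Rhoa had 0.26.

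Matrix genes were higher in a part of the families only. The main collagens were near equal: Col1a1 read 3532 in WT and 4206 in KO (0.25), Col1a2 5981 and 6496 (0.12), and Col3a1 1714 and 1442 (-0.25). Col8a1, a short-chain collagen, read 583 and 5223 (3.16) and Col12a1 138 and 330 (1.26), while Col15a1, a basement membrane collagen, was lower (487 and 193, -1.34). Of 56 proteoglycan and matrix glycoprotein genes 10 (17.9%) passed 2-fold upward and 4 (7.14%) downward. Mfap4, which binds elastic fibres, read 1121 and 6037 (2.43), Mgp, which prevents calcification, 8753 and 30950 (1.82), and Eln (elastin) 895 and 2440 (1.45). The small proteoglycans Omd (1.59), Aspn (1.53) and Fmod (1.42) were higher, and the more abundant kinds Dcn (0.06) and Lum (0.21) were not. The protease inhibitors Timp1 (1182 and 3434, 1.54) and Timp3 (18819 and 50347, 1.42) and the protease Mmp3 (1.31) were higher, with Timp3 at 0.96 and Mmp3 at 0.88 without loess. Among 38 integrin and laminin genes Itga11, a collagen receptor subunit of fibroblasts, read 281 and 1194 (2.08) and Itgbl1 241 and 1339 (2.47).

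TGF-β and BMP signalling genes were higher in part. Of 59 genes 10 (16.9%) passed 2-fold upward and 1 downward, though the median of 0.12 turned to -0.22 without loess and -0.1 after the spiked-in shift. The ligand genes Inhba (activin A; 815 in WT and 3574 in KO, 2.13), Bmp4 (929 and 3830, 2.04) and Tgfb3 (1928 and 5168, 1.42) were higher, and Tgfb1 was not (-0.56). The BMP targets Id4 (944 and 4181, 2.15), Id3 (4448 and 12421, 1.48), Id2 (1.05, and 0.64 without loess) and Smad6 (1.38, and 0.96 without loess) were higher too. Acvr1c (ALK7), the activin-type receptor of fat cells, read 810 and 83.7 (-3.27).

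Wnt and growth factor genes held a few large values. Of 50 Wnt genes 6 passed 2-fold upward and 1 was lower (median 0.24). Besides Ccn5, its relative Ccn4 read 654 in WT and 3033 in KO (2.21), and Wnt11, a ligand that acts on the actin skeleton, read 302 and 815 (1.43). Ctnnb1 (β-catenin), through which Wnt holds back fat cell formation, had -0.24 and its target Axin2 -0.73. In the growth factor list 7 of 45 genes (15.6%) passed 2-fold upward and 3 downward. Fgf18 read 270 and 1173 (2.12), the nerve growth factor relative Bdnf 131 and 499 (1.93), and Fgf7 1512 and 4001 (1.4, and 0.99 without loess). By contrast Fgf10, a factor of fat precursors, was 2.12-fold lower, an uncertain size as it was not well above background in KO. Igfbp2 read 1958 and 6574 (1.75) and Igfbp5 619 and 267 (-1.21).

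Markers of neighbouring connective tissue lineages were partly higher. Of 31 tendon, cartilage and bone genes 5 (16.1%) passed 2-fold upward and none downward, with a median of 0.2 (-0.02 after the spiked-in shift). Tnmd (tenomodulin) read 345 in WT and 2278 in KO (2.72), Scx (scleraxis), which directs tendon cells, 272 and 1089 (2.0), and Mkx 182 and 398 (1.13, and 0.82 without loess). The cartilage factor Sox9 (0.08) and the bone factor Runx2 (0.6) were within 2-fold. Among 36 precursor markers 5 (13.9%) passed 2-fold upward and none downward. Of the defining ones Pdgfra (1452 and 1378, -0.08) and Dlk1 (7709 and 9336, 0.28) were close to equal, and Cd34 (23665 and 12340, -0.94) was dimmer in KO, just within 2-fold. Dpp4, a marker of early precursors, read 95.9 and 228 (1.25, and 0.87 without the filter on dim probes).

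Hox genes, which record where along the body cells come from, leaned to KO. Of 30 genes with a value 24 had ratios above 0, 4 (13.3%) passed 2-fold upward, none was lower, and the median was 0.67. The higher ones belong to the posterior or central members of their clusters: Hoxa10 read 200 in WT and 976 in KO (2.29), Hoxc9 673 and 2472 (1.88), and Hoxb7 2858 and 6473 (1.18, and 0.78 without loess). Hoxa11 was 2.59-fold higher, an uncertain size as it was not well above background in WT. The 6 genes with ratios below 0 included the anterior members Hoxa3 (-0.09), Hoxa4 (-0.38), Hoxa5 (577 and 564, -0.03), Hoxc4 (-0.15) and Hoxc5 (-0.43), while Hoxb3 had 0.78. The lowest of the 6, at -0.52, is not among those named. Of the 30 genes, 3 were not well above background in WT. The order along the clusters was noticed in the values of the named genes only and was not tested.

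**Figure D4:**
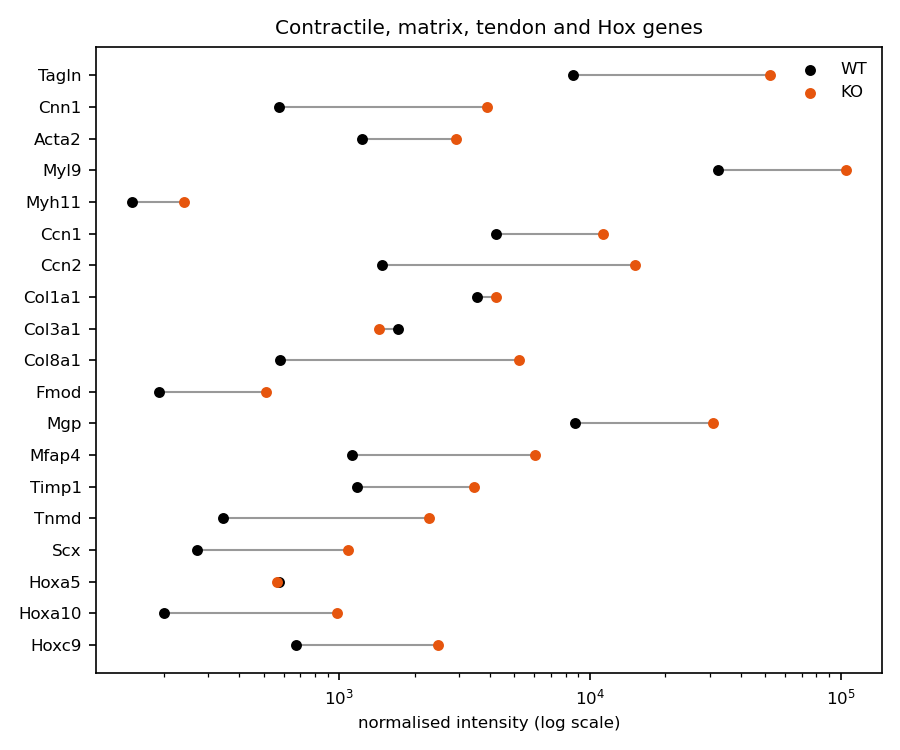
Normalised intensity (log scale) of 19 contractile, matrix, tendon and Hox genes in the WT (black) and KO (orange) channels, 1 array with no error bars. Ccn2, Col8a1, Tagln and Tnmd show the widest gaps with KO on the right, and Col1a1, Col3a1 and Hoxa5 lie close together.

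Macrophage transcripts were lower in the KO culture beside the fat cell genes. Of 46 macrophage markers 29 (63.0%) passed 2-fold downward, none was higher, and the median was -1.19. Their summed intensity was 510886 in WT and 179707 in KO, and 12 of the 46 also stand in another list. The defining markers were well above background in both channels: Lyz2 (lysozyme) read 24772 in WT and 5954 in KO (-2.06), Adgre1 (F4/80) 6800 and 2001 (-1.76), Csf1r, the receptor for the macrophage growth factor, 3177 and 896 (-1.83), Cd68 5286 and 2981 (-0.83) and Itgam 473 and 315 (-0.59). Clec7a, a receptor for fungal glucans, read 8685 and 700 (-3.63), and the scavenger receptor Msr1 1874 and 2130 (0.18). The part of macrophage RNA in the differences of other lists was not tested.

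Other immune lists held lower genes too. Of 28 antigen presentation genes 9 (32.1%) passed 2-fold downward and none upward (median -0.59), with H2-K1 at 59843 in WT and 20225 in KO (-1.57), though related H2 genes can share probe sequence. Of 42 interferon-stimulated genes 39 had ratios below 0 and 8 (19.0%) passed 2-fold downward, with Rsad2 at -1.68 and Mx1 at -1.51, while Isg15 had 0.3. Complement and coagulation genes were lower in 10 of 37 cases (27.0%) and higher in 3 (8.11%), with a median of -0.06. The lower ones included C3 (1357 and 511, -1.41) and the 3 chains of C1q (-1.52 to -1.22), and the higher ones were the coagulation genes F3 (1.54), F2r (1.37, and 0.95 without loess) and Tfpi (1.01, and 0.67 without loess). Lysosomal genes were lower in 8 of 61 (13.1%), with Psap at -1.95 and Ctsb at -1.73. Chemokines went both ways, with Ccl8 at -1.9 and Cxcl14 at 1.93.

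Markers of other cell types were mostly near equal or faint. Lymphocyte markers had 2 of 15 genes lower (summed intensity 6904 and 4089), and Cd3e and Cd4 were faint, reading 181 or less in KO. Of 21 endothelial markers 2 (9.52%) were higher, Ecscr (1.43) and Flt1 (1.35, and 0.82 without the filter on dim probes), and 1 lower, Icam2 (-1.46), with a summed intensity of 29348 in WT and 18221 in KO. The defining markers Cdh5 and Pecam1 were faint in WT and not well above background in KO. Of 45 skeletal muscle and myogenic genes 3 were higher and 2 lower (median -0.1). Brown fat precursors are known to share their origin with muscle, and muscle regulators were present. Myog read 2849 in WT and 3729 in KO (0.39). Myf5, which marks that origin, was 2.08-fold higher in KO, an uncertain size as it was not well above background in WT.

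Genes of the cGMP pathway around the missing kinase differed both ways. Of 22 cGMP-dependent kinases and known substrates 2 (9.09%) were higher, namely Prkg2 and Cnn1, and 3 (13.6%) lower, namely Rgs2, Prkg1 itself (-1.03) and the calcium release channel gene Itpr2 (-1.05), with a median of -0.02. Without the filter on dim probes Prkg1 had -0.79 and Itpr2 -0.77. Among 19 genes that make cGMP or regulate its making 3 (15.8%) passed 2-fold upward. Gucy1b1, the subunit of the nitric oxide receptor that holds the heme, read 1326 in WT and 3397 in KO on 3 probes between 1.22 and 1.46 (0.95 without loess), and its partner Gucy1a1 1083 and 1178 (0.12). Ddah1, which removes an inhibitor of nitric oxide synthases, read 245 and 869 (1.83), and Arg1, which competes for their substrate, 510 and 1864 (1.87). The natriuretic peptide receptors Npr2 (0.04) and Npr3 (0.24) were near equal. Of 20 phosphodiesterase genes Pde3b and Pde1b (-1.14) were lower, and Pde5a, which degrades cGMP, read 103 and 98.9 (-0.06). Rgs2, a G protein brake and PKGI substrate, read 2860 and 951 (-1.59, with probes at -2.17 and -1.01).

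Basic cell functions were near equal by the same measure. Ribosomal proteins had a median of 0.03 with 1 of 75 genes past 2-fold, and the proteasome 0.15 with 0 of 39; without loess the medians were -0.43 and -0.24. Cell cycle genes had 2 of 83 higher and 2 lower. The proliferation marker Mki67 read 27944 in WT and 14770 in KO (-0.92), while Top2a (-0.27), Cdk1 (0.44) and Ccnb1 (0.22) were nearer to equal, and the cyclins Ccnd2 (1.5) and Ccnd1 (1.25, and 0.84 without loess) were higher. Antioxidant genes went both ways, 5 of 53 each, with catalase Cat lower (15821 and 3373, -2.23) and Gpx8 higher (6638 and 17527, 1.4, and 0.99 without loess). Of 41 cholesterol genes 5 (12.2%) were lower and 2 (4.88%) higher, with a median of -0.04. The lower ones were Nr1h3, the efflux genes Abcg1 (6364 and 1016, -2.65) and Abca1 (-1.92), Apoe (-1.79) and Cyp27a1 (-1.7), and the higher ones the oxysterol maker Ch25h (594 and 3319, 2.48) and the synthesis enzyme Msmo1 (1.07, and 0.64 without loess).

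Several of the most extreme genes belong to no group above. On the lower side Car3, a carbonic anhydrase abundant in fat, read 26293 in WT and 817 in KO (-5.01). Rgcc read 15909 and 757 (-4.39), Apoc1, an apolipoprotein, 12068 and 662 (-4.19), and Lgals12, a galectin of lipid droplets, 3023 and 167 (-4.17). Sncg (γ-synuclein) and Arxes1, both known from fat cells, each had -3.63. On the higher side Asb5, a ubiquitin ligase subunit known from muscle, read 1091 in KO against a faint WT signal (log2 ratio 3.44), the highest ratio among genes measured in both channels. The glutamate transporter Slc1a6 read 649 and 5553 (3.1), the matrix protein Ccn3 5388 and 29944 (2.47), Itm2a 8263 and 36674 (2.15), and the glycine receptor subunit Glrb 133 and 830 (2.64).

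The RNA of the cultures also differed in Xist, the RNA that silences an X chromosome in females. It read 1057 in WT and 103 in KO on the mean of 4 probes between -5.26 and -1.53. The Y-linked genes Eif2s3y (5380 and 4961, -0.12) and Kdm5d (808 and 850, 0.07) were well above background in both. Both cultures thus held Y-linked RNA, and the WT culture held more Xist. The part of this difference in other genes was not tested.

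Against the tissue array, on which 0.961% of 20388 names passed 2-fold upward and 2.47% lower in KO, the lists of the cultured cells stood at different places. Values from 1 array each, with opposite dyes, allow no test of that difference. The lipases had a median of -1.44 in the cultured cells and -0.26 in tissue, macrophage markers -1.19 and -0.02, contractile genes 0.69 and -0.49, Hox genes 0.67 and -0.04, and skeletal muscle genes -0.1 and -2.2. The lipogenic list was below 0 on both, with -0.96 and -0.68. Pparg had -3.49 in the cultured cells and 0.82 in tissue, Adipoq -5.22 and 0.77, and Ucp1 -3.78 and -1.84. The tissue RNA of KO and WT differed in sex-linked transcripts too. Xist had 4.41 in tissue, and the list of Y-linked and X-inactivation transcripts had a tissue median of -1.73 over 6 genes. The part of this difference in other tissue values was not tested.

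**Figure D5:**
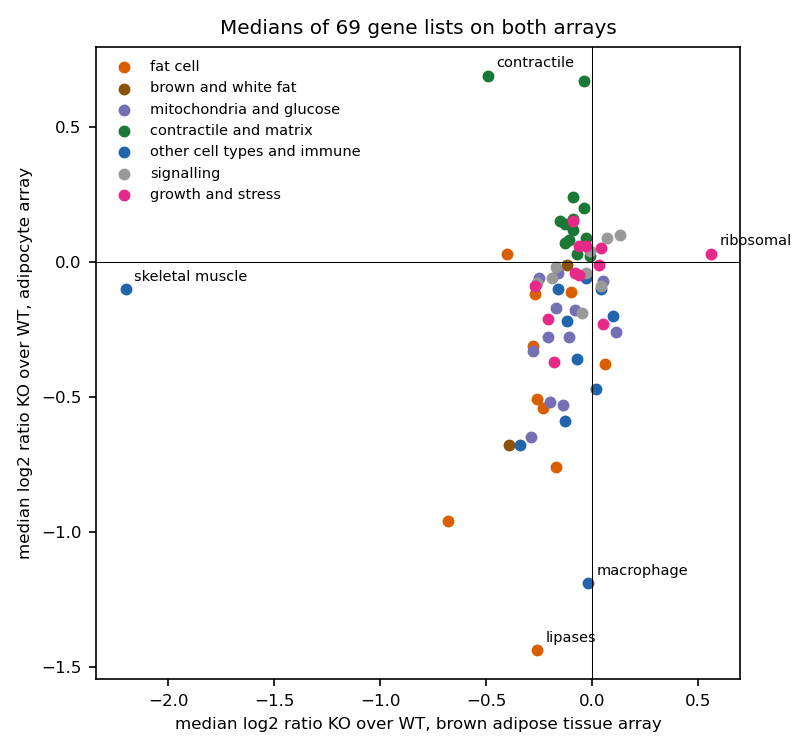
Median log2 ratio (KO over WT) of 69 gene lists on the tissue array (x axis) and on the adipocyte array (y axis), coloured by kind of list. The list of Y-linked and X-inactivation transcripts was left out. Macrophage and lipase lists lie far below 0 on the adipocyte axis and near 0 on the tissue axis, and the skeletal muscle list, at -2.2 on the tissue axis, lies at -0.1 on the adipocyte axis.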

How the data were processed

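Members and gene lists were chosen with earlier results of these data known. Per the file headers, the deposited scanner file holds spot intensity values from Agilent Feature Extraction 9.5.1.1 (protocol GE2-v5_95_Feb07) and a log10 ratio, red against green. The value table deposited by the authors holds log10 ratios too, equal to these with the sign turned within 0.017 on the log2 scale, and empty for 6963 gene spots. From the mean signals and local backgrounds, limma 3.58.1 in R 4.3.3 computed normexp background correction (offset 50), loess with weight 0 for the 1639 control spots, and, for levels, Aquantile scaling over both arrays. The 203 outlier gene spots were removed first. Of 41156 probes, 29161 exceeded background well in 1 channel or both and were kept, and genes are means over kept probes. Names came from RefSeq (GRCm38.p6) by accession (22937 probes), symbol (6656) or synonym (3109), and the file's name otherwise (8454). A gene below background in a channel on all probes has a bound ("at least N-fold") against the lowest signal well above background. A second deposited copy of the array differed by at most 0.498%. The steps were tested on simulated data. With 1 array there was no test. Genes were named by a rule: Prkg1; the top 25 genes each way among those measured in both channels; up to 8 by bound each way; up to 6 members past 2-fold each way per list, or else the 2 largest; core members; and every probe of Fabp4, Ucp1, Pparg and Acta2. Further list members given beside them for contrast were named after their values were seen. Some results are not reported here.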

Additional observations from a re-analysis of the deposited data

Results flagged for a closer look

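For 19 named genes the 2 arrays read at least 2-fold in opposite directions; the difference was not tested, since each array is a single one and the dyes were opposite. Higher in the cultured KO cells and lower in KO tissue were Asb5 (3.44 and -1.81), Ccn2 (3.36 and -1.03), Scx (2.0 and -1.63), Tpm2 (1.73 and -2.02), Acta1 (1.52 and -2.33), Actc1 (1.49 and -1.57), Sfrp4 (1.18 and -1.01), Cryab (1.17 and -1.12), Cox6a2 (1.1 and -2.86), Kcnn2 (1.08 and -1.05, the first not well above background in WT) and Fitm1 (1.03 and -1.65). Lower in the cultured KO cells and higher in KO tissue were Cfd (-5.67 and 1.78), Cidea (-3.38 and 1.01), Xist (-3.36 and 4.41), Aldoa (-1.88 and 1.32), Lpin1 (-1.88 and 1.34), Apoe (-1.79 and 1.05), Rgs2 (-1.59 and 1.89) and Rplp2 (-1.07 and 1.89). Without loess Cryab, Sfrp4, Cox6a2 and Fitm1 were under 2-fold in the cultured cells. So were Rplp2 with the ratios of the scanner software or the deposited table (-0.85) and Kcnn2 without the filter on dim probes (0.68). Each pair gives the log2 ratio in the cultured cells first and in tissue second. On the tissue array the skeletal muscle list had a median of -2.2, and Acta1, Actc1, Tpm2, Cox6a2 and Asb5 are known to be expressed in muscle; the part of muscle RNA in these values was not tested.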

How the results depend on the processing

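No paired analysis was possible because each comparison has 1 array. The count of higher genes (416) became 1023 with the ratios of the scanner software, 1020 with the deposited table, 704 with offset 0, 225 after a shift of 0.22 by spiked-in controls, 212 without loess and 80 at 3-fold. The count of lower genes (736) became 1229, 1227, 1146 (spiked-in shift), 1470 (no loess) and 235 (3-fold). List medians that moved by more than the spread between probes were, without loess, adipogenic factors -0.76, droplet coat genes -1.19, lipases -1.75, contractile genes 0.36 and macrophage markers -1.54; with both channels above background, droplet coat genes -1.09, lipases -2.1 and thermogenic genes -0.42; without the filter on dim probes, lipases -0.81 and thermogenic genes -0.32; by the brightest probe, droplet coat genes -0.98 and lipases -1.83; and with the scanner ratios or the deposited table, lipases -2.02 and contractile genes 0.9. Of 70 lists, 22 had medians of either sign under at least 1 of 9 settings other than the shift, 5 of them with medians of 0.1 or more in size: matrix proteases, TGF-β signalling, precursor markers, Rgs genes and the proteasome; the shift turned 20 medians, 2 of them in further lists (matrix glycoproteins and tendon, cartilage and bone markers). Of 333 named genes past 2-fold, 264 stayed past it the same way under those 9 settings where they had a value, 69 did not and 0 changed sign; after the shift 29 were under 2-fold, 2 of them among the 264. The shift and 2 further alternatives were chosen after seeing the data. Probes near background, whose ratios the offset compresses, limit the sizes of dim genes.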
